A study of Mus musculus with 8 samples.

Results

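The genes described here encode 10 transporters that move bile acids and other organic anions across the membranes of liver cells. They were taken by symbol from the table of 22013 genes measured in mouse liver, and all 10 were found and passed the filter on low counts. By the membrane they serve they fall into basolateral uptake (Slc10a1, Slco1a1, Slco1a4 and Slco1b2), canalicular export (Abcb11, Abcb4 and Abcc2) and basolateral export (Abcc3, Abcc4 and Slc51b). The study profiled poly(A)-selected liver RNA in 8 libraries, 4 labelled resmetirom and 4 labelled control. Resmetirom activates the thyroid hormone receptor, with a preference for its beta form. The series describes a steatohepatitis model in which mice were fed fructose, palmitate and cholesterol for 12 weeks and were given resmetirom into the peritoneum at 5 mg/kg/day for the last 8 weeks, after 4 weeks of diet alone. The series names a vehicle of 0.5% CMC-Na with 0.4% Tween-80. For the control libraries no label names a diet or a vehicle, and for neither group were strain, sex and age given. Drug and any difference between the groups in diet, vehicle, strain, sex or age therefore cannot be told apart.

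A hepatocyte has a basolateral side that faces the blood and a canalicular side that faces the bile. Bile acids returning from the gut are taken up on the basolateral side, mainly by the sodium-dependent carrier NTCP (Slc10a1) and by sodium-independent OATP carriers, and are then pumped into bile by ABC transporters that use ATP. When flow into bile is impaired, exporters of the basolateral side can return bile acids and conjugates to the blood. The bile acid receptor FXR, which the gene Nr1h4 encodes, is known to induce the export pump gene Abcb11 and the exporter gene Slc51b.

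Promoter windows are shown for 4 members: Abcb11 and Slco1b2, because each holds a sequence close to the inverted repeat that FXR binds, and Slco1a1 and Slco1a4, because these neighbours on chromosome 6 differed in direction. Each is the 250 bases before the annotated start, read 5′ to 3′ on the strand of the gene, from RefSeq on GRCm38.p6. Capitals mark AGGTCA on either strand, the core site shared by many nuclear receptors, the thyroid hormone receptor among them, and an inverted repeat made of AGGNCA, 1 further base and TGACCT, which ends in such a core site. The letters of the repeat were chosen after the Abcb11 window had been read.
Abcb11, chr2:69342617-69342866, minus strand: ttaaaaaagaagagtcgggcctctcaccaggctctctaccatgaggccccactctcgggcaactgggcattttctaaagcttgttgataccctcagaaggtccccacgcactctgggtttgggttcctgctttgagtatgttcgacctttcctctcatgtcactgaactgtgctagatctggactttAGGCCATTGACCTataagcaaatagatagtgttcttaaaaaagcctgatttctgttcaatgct
Slco1b2, chr6:141629268-141629517, plus strand: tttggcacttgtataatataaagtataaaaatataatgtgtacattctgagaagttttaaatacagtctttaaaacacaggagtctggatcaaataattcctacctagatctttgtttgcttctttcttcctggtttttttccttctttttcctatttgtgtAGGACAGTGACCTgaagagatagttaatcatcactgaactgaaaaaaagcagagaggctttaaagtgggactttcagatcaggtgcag
Slco1a1, chr6:141946963-141947212, minus strand: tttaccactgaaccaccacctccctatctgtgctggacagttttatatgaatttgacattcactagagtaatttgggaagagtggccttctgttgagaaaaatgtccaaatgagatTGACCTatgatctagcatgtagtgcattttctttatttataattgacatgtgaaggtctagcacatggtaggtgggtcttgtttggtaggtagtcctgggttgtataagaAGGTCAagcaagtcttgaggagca
Slco1a4, chr6:141856221-141856470, minus strand: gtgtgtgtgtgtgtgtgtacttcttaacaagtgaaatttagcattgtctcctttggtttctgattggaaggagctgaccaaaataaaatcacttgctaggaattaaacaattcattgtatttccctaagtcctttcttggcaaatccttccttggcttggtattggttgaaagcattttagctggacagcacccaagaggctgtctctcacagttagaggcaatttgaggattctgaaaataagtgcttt

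The inverted repeat began 63 bases before the start of Abcb11 and 88 bases before that of Slco1b2, and was found in 11 of 32851 promoter windows of this length (0.0335%). The core site was found in 14% of windows. The Slco1a1 window held 2 core sites outside any such repeat, 134 and 24 bases before the start, and the Slco1a4 window held none. Neither DR4, in which 4 bases lie between 2 copies of AGGTCA in the same direction and which thyroid hormone receptors can bind, found in 0.0152% of windows, nor TTCNNNGAA, the STAT5 consensus, found in 7.02%, was among the letters of the Slco1a1, Slco1a4 or Abcb11 windows. The STAT5 letters were in the windows of Slco1b2 and Slc51b and in 1 of the 2 windows of Slc10a1. Windows were held for 9 of the 10 members. A match of letters is a description of the sequence and shows no binding.

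Total counts were 16787561 to 18682190 per resmetirom library and 17436759 to 19887539 per control library. Major urinary protein transcripts took 17.8% to 25.1% of the counts in resmetirom replicates 2 to 4, 7.54% in resmetirom replicate 1 and 4.32% to 7.05% in the control libraries. Such a large share lowers the values of all other genes where libraries are scaled to a fixed sum. Levels of a gene are therefore given as CPM scaled by TMM factors, which fit libraries on the bulk of their genes, and levels of different genes are compared in TPM, which corrects for length. The 10 hepatocyte markers summed to 103131 to 113793 CPM in the resmetirom libraries and 83823 to 93678 CPM in the control libraries. Alb made up most of this sum, at 73186 CPM with resmetirom and 58272 CPM in controls. Of the 10 markers 8 had positive and 2 negative log2 fold changes. Of the markers of other cells, 6 of 8 kidney tubule genes (Slc22a6, Umod, Kap, Slc12a1, Aqp2 and Nphs1) and 3 of 8 intestinal genes (Fabp6, Lct and Sis) had no counts in any library. The intestinal list summed to 275 to 288 CPM in the resmetirom libraries and 235 to 284 CPM in the control libraries, most of it Fabp2 at 207 CPM with resmetirom and 192 CPM in controls, and edgeR called 1 of its 3 tested genes higher. All 10 endothelial markers had negative log2 fold changes (median -0.37) and all 6 tested lymphocyte markers positive ones (median 0.91), with 0 called by edgeR in either list. Without resmetirom replicate 1 the lymphocyte markers were 3 positive and 3 negative (median 0.53). The endothelial markers stayed negative without that library (median -0.52), with 2 called lower. DESeq2 called 0 endothelial markers and 1 lymphocyte marker, and with library sizes only 4 endothelial markers were called lower. The part of these cells in the members' values was not tested. Cholangiocyte markers, of cells that also carry Abcc3 and Slc51b, summed to 46.1 to 79.1 CPM in the resmetirom libraries and 33.6 to 62.6 CPM in the control libraries, with 0 of 6 tested called by edgeR. Most of that sum was Spp1, at 43.8 CPM with resmetirom and 32.5 CPM in controls. The 6 tested markers had a median log2 fold change of 0.55, with 4 positive and 2 negative, and a median of 0.21 without resmetirom replicate 1. The part of cholangiocytes in the values of Abcc3 and Slc51b was not tested. In bulk liver RNA, fewer cells of a type and less RNA per cell cannot be told apart.

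The single comparison the design allows is resmetirom against control. The uptake carrier gene Slc10a1 and its fellow uptake gene Slco1a4 rose, as did Abcb4, the phospholipid flippase gene of the canalicular membrane, while the basolateral exporter genes Abcc3 and Abcc4 fell. Of the 10 members 3 were called higher and 2 lower by edgeR's quasi-likelihood test at a Benjamini-Hochberg adjusted p under 0.05 over 12207 genes, where 2.6% of all tested genes were called higher and 1.99% lower (4.59% in all). In CPM all 4 resmetirom libraries lay above all 4 control libraries for 4 members, against 6.32% of all tested genes, and below them for 3, against 5.5%, which makes 7 members against 11.8%. In TPM the groups were apart for 4 members, Slco1a1, Slco1b2, Abcc3 and Abcc4, all lower, against 33.2% of all tested genes in either direction. DESeq2 called 4 members higher and 3 lower, against 4.36% and 3.37% of all tested genes, and limma-voom 3 higher and 3 lower, against 2.7% and 1.86%. Their median log2 fold change was 0.23, beside -0.00434 for all tested genes. Scaled by library size alone, the tested genes had a median of -0.31, and 1 member was called higher and 3 lower, against 1.24% and 16.1% of all tested genes. Of the 10 members, 6 kept their direction under all 20 alternatives tried, or the 19 in which Slc51b was tested. The other 4, Slco1b2, Abcb11, Abcb4 and Abcc2, turned below 0 on the log2(TPM + 1) scale, with values given below.

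**Figure D1:**
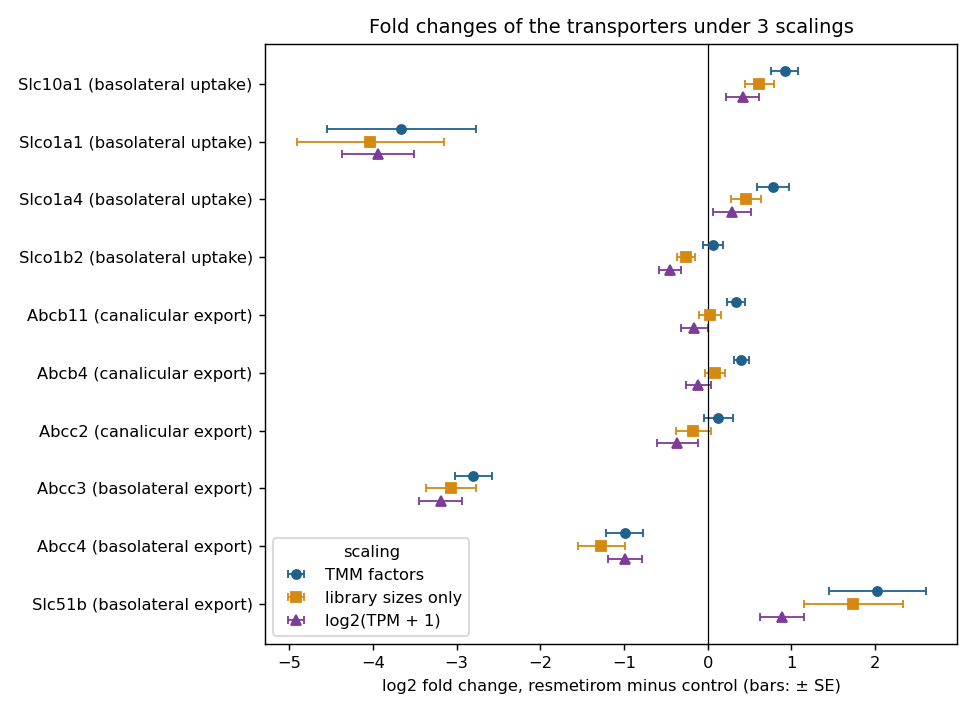
Log2 fold change (resmetirom minus control, bars ± SE) of the 10 transporters with TMM factors, on library sizes alone and as log2(TPM + 1). Slco1a1, Abcc3 and Abcc4 lie left of 0 and Slc10a1, Slco1a4 and Slc51b right of 0 in all 3, while Slco1b2, Abcb11, Abcb4 and Abcc2 lie within 0.45 of 0 and change sides.

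Among the basolateral uptake genes the smallest adjusted p was that of Slc10a1, the main sodium-dependent bile acid carrier (ENSMUSG00000021135, chromosome 12, 80953183 to 80968705). Slc10a1 was at 570, 667, 454 and 615 CPM in resmetirom replicates 1 to 4, against 277, 405, 282 and 259 CPM in control replicates 1 to 4. The highest control library, replicate 2, stayed below the lowest resmetirom library, replicate 3. Slc10a1 averaged 576 ± 90.9 CPM with resmetirom and 306 ± 66.7 CPM in controls (SD, n = 4 each), and its log2 fold change was 0.92 with an SE of 0.16 (edgeR's quasi-likelihood test, adjusted p = 0.00629). The call held without any 1 library, with a highest adjusted p of 0.0286. On the log2(TPM + 1) scale the change of Slc10a1 was 0.42 (SE 0.20) and was not called (adjusted p = 0.103).

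Slco1a1 and Slco1a4 encode OATP carriers of the same subfamily, 51082 bases apart on chromosome 6. Slco1a1 (ENSMUSG00000041698, chromosome 6, 141907282 to 141946962), which mouse livers are known to express more in males, was at 0.225, 13.1, 10.1 and 3.46 CPM in resmetirom replicates 1 to 4. In control replicates 1 to 4 Slco1a1 was at 96.2, 104, 41.8 and 94.7 CPM. The groups did not overlap, and resmetirom replicate 1 held 4 counts in all. The log2 fold change of Slco1a1 was -3.66 (SE 0.89), the lowest of the 10 members, and did not pass (adjusted p = 0.084, edgeR). It passed at -3.24 when resmetirom replicate 1 was left out (adjusted p = 0.0363) and at -4.03 when library sizes were the only scaling (adjusted p = 0.0286, edgeR). Slco1a1 also passed with non-robust dispersions (adjusted p = 0.0123), in DESeq2 at -3.64 (adjusted p = 0.0034), in limma-voom at -4.72 (adjusted p = 0.0128) and on both TPM scales.

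Slco1a4 (ENSMUSG00000030237, chromosome 6, 141805440 to 141856199), which mouse livers are known to express more in females, was at 160, 229, 180 and 204 CPM in resmetirom replicates 1 to 4. In control replicates 1 to 4 Slco1a4 was at 72.3, 141, 116 and 119 CPM. Every resmetirom library was higher than every control library, by a narrow margin. The change of Slco1a4 was 0.78 (SE 0.19, adjusted p = 0.048, edgeR). That call was lost without control replicate 3 (adjusted p = 0.118) or 4 (adjusted p = 0.119), without resmetirom replicate 2 (adjusted p = 0.101), 3 (adjusted p = 0.0762) or 4 (adjusted p = 0.133), without a low-count filter (adjusted p = 0.0667) and with library sizes only at 0.46 (adjusted p = 0.0926). As log2(TPM + 1) the change was 0.29 (adjusted p = 0.294).

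A pair of marker lists holds other genes that mouse livers express more in one sex. Of 10 tested male-biased genes edgeR called 6 lower and 0 higher, and the sum of the list was 1689 to 5487 CPM in the resmetirom libraries and 16710 to 19756 CPM in the control libraries. The other 4 were not called, and 2 of them had positive changes, Mup7 at 2284 CPM with resmetirom and 268 CPM in controls and Cyp7b1 at 88.9 CPM with resmetirom and 53.7 CPM in controls, which DESeq2 and limma-voom called higher. Most of the male-biased sum in controls was Mup20, at 15540 CPM there and 999 CPM with resmetirom. With resmetirom Mup7 was the largest part by mean CPM, so the sum follows these genes more than the list. Of 13 tested female-biased genes edgeR called 9 higher and 0 lower, with sums of 2181 to 3421 CPM in the resmetirom libraries and 232 to 337 CPM in the control libraries. Against the others Cyp2b9 was at 45.9 CPM with resmetirom and 70.2 CPM in controls, which edgeR did not call and both TPM scales called lower. Female mouse livers are also known to carry more Abcc3 and Abcc4 RNA, and these members fell. The part of sex-biased expression in the values of Slco1a1, Slco1a4, Abcc3, Abcc4 and the other members was not tested.

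Slco1b2 encodes the main OATP carrier of the mouse hepatocyte (ENSMUSG00000030236, chromosome 6, 141629518 to 141686646). It was at 917, 1324, 1279 and 1272 CPM in resmetirom replicates 1 to 4, against 1060, 1152, 1166 and 1191 CPM in control replicates 1 to 4. Resmetirom replicate 1 lay below and the other resmetirom libraries above all control libraries. The change of 0.069 (SE 0.12) was not called by edgeR, and was -0.26 with library sizes only (adjusted p = 0.111) and -0.45 as log2(TPM + 1), where it was called lower (adjusted p = 0.0231), as were 38% of all tested genes.

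**Figure D2:**
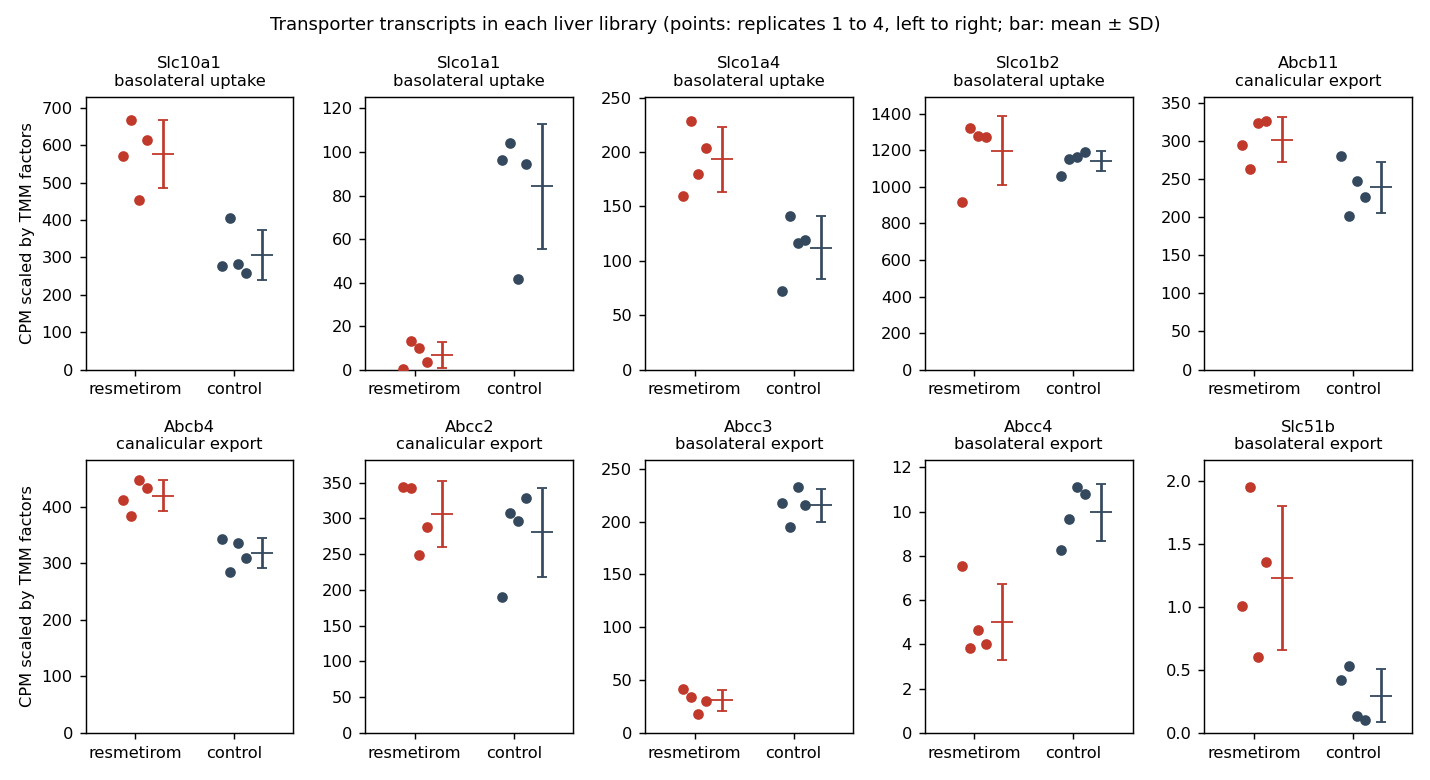
CPM scaled by TMM factors of each of the 10 transporters in 4 resmetirom and 4 control libraries, with points for replicates 1 to 4 from left to right and a bar for mean ± SD, on axes that start at 0. The groups are fully apart for Slc10a1, Slco1a1, Slco1a4, Abcb4, Abcc3, Abcc4 and Slc51b and overlap for Slco1b2, Abcb11 and Abcc2.

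Among the canalicular exporters Abcb4 was called and the others were not. Abcb4 encodes the flippase that delivers phosphatidylcholine to bile (ENSMUSG00000042476, chromosome 5, 8893717 to 8959231). Abcb4 was at 412, 384, 447 and 433 CPM in resmetirom replicates 1 to 4, against 343, 284, 335 and 309 CPM in control replicates 1 to 4. The groups did not overlap, and the change was 0.4 (SE 0.09, adjusted p = 0.0241, edgeR). It was not called without control replicate 2 (adjusted p = 0.0651) or 4 (adjusted p = 0.0912) or resmetirom replicate 3 (adjusted p = 0.0672) or 4 (adjusted p = 0.0794), and was 0.089 with library sizes only (adjusted p = 0.59) and -0.11 as log2(TPM + 1) (adjusted p = 0.537). The 10 hepatocyte markers had a median change of 0.35, with 3 called higher and 0 lower by edgeR, and a median of 0.047 with library sizes only. Their part in the change of Abcb4 was not tested.

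Abcb11 encodes the bile salt export pump (ENSMUSG00000027048, chromosome 2, 69238282 to 69342616). It was at 295, 263, 324 and 326 CPM in resmetirom replicates 1 to 4, against 281, 202, 247 and 227 CPM in control replicates 1 to 4. Resmetirom replicate 2 lay below control replicate 1, so the groups overlapped. The change of Abcb11 was 0.34 (SE 0.11, adjusted p = 0.127, edgeR), 0.027 with library sizes only (adjusted p = 0.894) and -0.16 as log2(TPM + 1) (adjusted p = 0.378). It was called by none of the 20 alternatives.

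Abcc2 encodes MRP2, which exports bilirubin glucuronides and other conjugates into bile (ENSMUSG00000025194, chromosome 19, 43782192 to 43840740). It was at 344, 343, 249 and 288 CPM in resmetirom replicates 1 to 4, against 190, 307, 296 and 329 CPM in control replicates 1 to 4. Control replicate 1 was the lowest of the 8 libraries, and of the resmetirom libraries 2 lay above and 2 below the other control libraries. The change of Abcc2 was 0.13 (SE 0.17, adjusted p = 0.776, edgeR), -0.17 with library sizes only, -0.36 as log2(TPM + 1) and -0.02 without control replicate 1, and it was called by none of the 20 alternatives.

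The basolateral exporters held the firmest change of the set. Abcc3 encodes MRP3, which returns glucuronides and bile acids to the blood (ENSMUSG00000020865, chromosome 11, 94343295 to 94392997). Abcc3 was at 41.3, 34.2, 17.8 and 30.6 CPM in resmetirom replicates 1 to 4, against 218, 195, 233 and 216 CPM in control replicates 1 to 4. The highest resmetirom library was far below the lowest control library. Abcc3 averaged 31 ± 9.84 CPM with resmetirom and 215 ± 15.7 CPM in controls (SD, n = 4 each), which is 6.95-fold lower by the fitted log2 fold change of -2.8 (SE 0.22, adjusted p = 0.000128, edgeR). It was the only member called in the fit and in all 20 alternatives, with changes between -3.35 and -2.61.

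Abcc4 encodes MRP4, which exports bile acids together with glutathione (ENSMUSG00000032849, chromosome 14, 118482692 to 118706219). Abcc4 was at 7.55, 3.83, 4.66 and 4 CPM in resmetirom replicates 1 to 4, against 8.29, 9.68, 11.1 and 10.8 CPM in control replicates 1 to 4. Resmetirom replicate 1 came close to control replicate 1, and the other resmetirom libraries were lower. The change of Abcc4 was -0.99 (SE 0.22, adjusted p = 0.0261, edgeR) and -1.26 without resmetirom replicate 1 (adjusted p = 0.00299). The call was lost without control replicate 2 (adjusted p = 0.0572), 3 (adjusted p = 0.0797) or 4 (adjusted p = 0.0921), or resmetirom replicate 2 (adjusted p = 0.0711), 3 (adjusted p = 0.0566) or 4 (adjusted p = 0.0886).

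Slc51b encodes the beta subunit of the OST bile acid exporter, which works only together with the alpha subunit (ENSMUSG00000053862, chromosome 9, 65412714 to 65422955). Its RNA was rare, with 77 counts over the 4 resmetirom libraries and 25 over the 4 control libraries. Slc51b was at 1.01, 1.95, 0.599 and 1.36 CPM in resmetirom replicates 1 to 4, against 0.419, 0.532, 0.136 and 0.0989 CPM in control replicates 1 to 4. In CPM each resmetirom library was above each control library, the lowest by little, with 9 counts in resmetirom replicate 3 and 11 in control replicate 2. In TPM the groups overlapped, at 0.939 to 3.44 with resmetirom and 0.274 to 1.36 in controls. The change of 2.03 (SE 0.58, adjusted p = 0.0738, edgeR) did not pass, while DESeq2 called it at 2.05 (adjusted p = 0.0189) and limma on log2(TPM + 1) values did so at 0.89 (adjusted p = 0.0228). The alpha subunit gene Slc51a had 10 counts over the resmetirom and 24 over the control libraries and was not tested. Slc51b overlaps Rasl12 on the opposite strand, a gene with 6 and 9 counts over the same libraries, and how the counting treated strand is not stated.

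Ratios of transporters within a library do not depend on how libraries are scaled to each other. The summed RNA of the basolateral exporters, most of it Abcc3, was low against that of the canalicular exporters in every resmetirom library. The summed TPM of the basolateral exporters was 0.0531, 0.0511, 0.025 and 0.0399 of that of the canalicular exporters in resmetirom replicates 1 to 4, against 0.272, 0.268, 0.272 and 0.27 in control replicates 1 to 4. The control libraries were nearly equal and every resmetirom library was lower. Abcc3 made up 95.1% of the basolateral sum in controls and 69.9% with resmetirom, so this ratio largely restates the change of Abcc3. Mean TPM of Abcc4 was also lower with resmetirom, while that of Slc51b was higher, at 2.3 with resmetirom and 0.762 in controls. Abcc3 alone stood to Abcc2 at 0.115 to 0.192 with resmetirom and 0.913 to 1.75 in controls, and to Abcb11 at 0.0536 to 0.137 with resmetirom and 0.76 to 0.942 in controls. Slc10a1 stood to Slco1b2 at 1.23, 0.994, 0.7 and 0.955 in resmetirom replicates 1 to 4 and at 0.514, 0.699, 0.476 and 0.43 in control replicates 1 to 4. Resmetirom replicate 3 and control replicate 2 met at nearly the same ratio, and all other libraries were apart. Slco1a1 stood to Slco1a4 at 0.000993, 0.0422, 0.0413 and 0.013 in resmetirom replicates 1 to 4 and at 1.04, 0.517, 0.275 and 0.518 in control replicates 1 to 4. The ratio of summed uptake to summed canalicular export overlapped, at 3.31 to 4.44 with resmetirom and 3.2 to 4.38 in controls, as did that of Abcb4 to Abcb11, at 1.62 to 1.8 with resmetirom and 1.49 to 1.71 in controls.

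**Figure D3:**
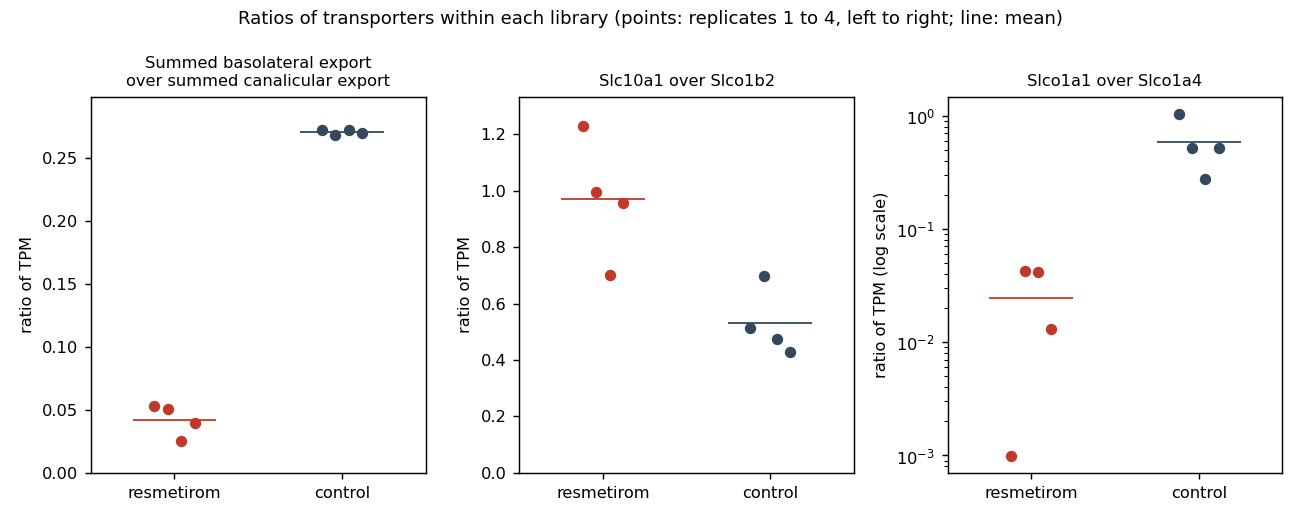
TPM ratios within each library for summed basolateral over summed canalicular exporters, Slc10a1 over Slco1b2 (both axes from 0) and Slco1a1 over Slco1a4 (log axis), with points for replicates 1 to 4 from left to right and a line for the mean of 4 libraries. The first ratio is 0.025 to 0.0531 with resmetirom and 0.268 to 0.272 in controls.

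Per length, the uptake carriers Slco1b2 and Slc10a1 were the most abundant members in both groups. In the resmetirom libraries the order of mean TPM was Slco1b2 (472 ± 31.8), Slc10a1 (459 ± 114), Abcb4 (139 ± 24.4), Slco1a4 (97 ± 17.4), Abcb11 (81.7 ± 14.8), Abcc2 (56.8 ± 16), Abcc3 (8.52 ± 4.05), Slc51b (2.3 ± 1.03), Slco1a1 (2.25 ± 2.01) and Abcc4 (1.22 ± 0.661; SD, n = 4). In the control libraries it was Slco1b2 (645 ± 60.3), Slc10a1 (340 ± 68.6), Abcb4 (148 ± 14.5), Abcb11 (91 ± 11.6), Slco1a4 (81.8 ± 26.2), Abcc3 (80.4 ± 8.18), Abcc2 (72.9 ± 19.5), Slco1a1 (43.4 ± 14.4), Abcc4 (3.33 ± 0.562) and Slc51b (0.762 ± 0.527; SD, n = 4). In the resmetirom libraries the ranges overlapped between Slco1b2 and Slc10a1, between Slco1a4 and Abcb11, between Abcb11 and Abcc2, and among the last 3. In the control libraries they overlapped from Abcb11 down to Slco1a1, neighbour by neighbour, and between no other neighbours. Of the summed uptake TPM, Slc10a1 made up 44% ± 5.15 with resmetirom and 30.5% ± 4.13 in controls, and Slco1b2 46.3% ± 5.26 with resmetirom and 58.3% ± 4.61 in controls (SD, n = 4 each). Of the summed basolateral export TPM, Abcc3 made up 69.9% ± 3.64 with resmetirom and 95.1% ± 0.754 in controls, and Slc51b 19.4% ± 6.1 with resmetirom and 0.951% ± 0.725 in controls (SD, n = 4 each). The sum itself was 12 ± 5.19 TPM with resmetirom and 84.5 ± 8.09 TPM in controls. Abcc4 therefore also gained in share, at 10.6% ± 4.02 with resmetirom and 3.93% ± 0.475 in controls, although its TPM was lower with resmetirom.

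**Figure D4:**
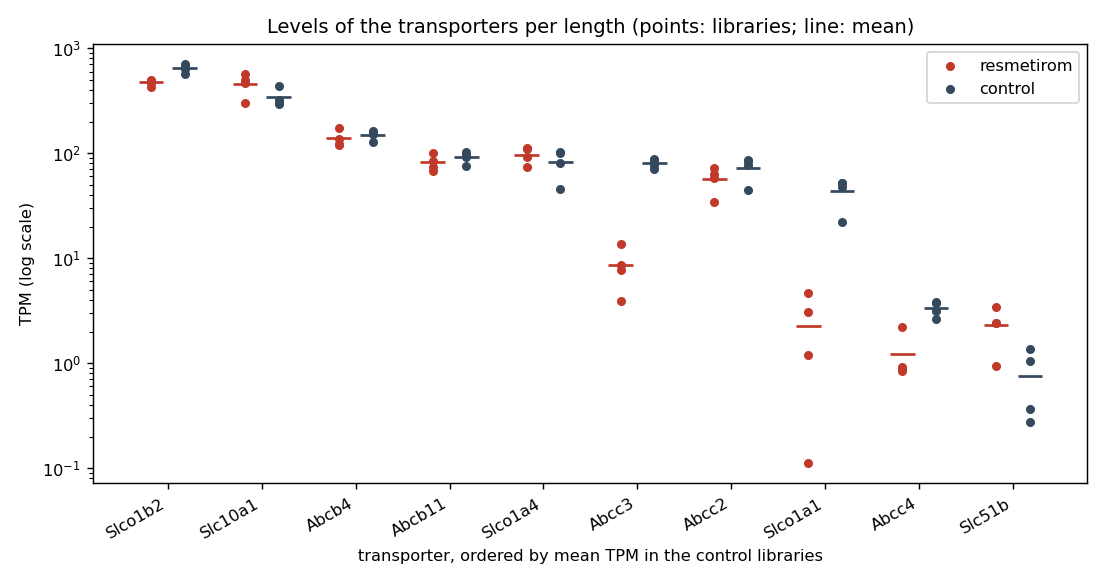
TPM (log axis) of the 10 transporters in the 4 resmetirom and 4 control libraries, ordered by mean TPM in the control libraries, with points for libraries and lines for means. Abcc3 averages 8.52 TPM with resmetirom and 80.4 TPM in controls, and Slco1b2 and Slc10a1 are the most abundant in both groups.

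The gene length implied by a library's count over its TPM varied little for most members, at most 1.09-fold between libraries for 8 of them, but 1.21-fold for Slco1a4 and 1.26-fold for Abcc2. The groups overlapped in it, at 0.904 to 1.07 of the median with resmetirom and 0.884 to 1.07 in controls for Slco1a4, and at 0.868 to 1.09 with resmetirom and 0.91 to 1.04 in controls for Abcc2. Of the runs of 50 bases in the annotated transcripts of Slco1a1, 1.64% were found in another gene, most often Slco1a4, and for Slco1a4 it was 1.61%, most often Slco1a5, which was listed at 0 counts in every library. For Abcb4 it was 2.83%, most often Abcb1a, which was at 5.4 CPM with resmetirom and 5.57 CPM in controls. The other members shared less than 1%.

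Other exporters of the liver, on a list of 15 genes, had 3 lower and 0 higher among 13 tested, with a median log2 fold change of -0.044, beside -0.00434 for all tested genes. All 3 belong to the ABCG family. Abcg5 and Abcg8, which together secrete cholesterol into bile, changed by -1.64 (SE 0.082, adjusted p = 3.39e-07) and -1.5 (SE 0.18, adjusted p = 0.000862, edgeR). Abcg2, which exports conjugates and xenobiotics, was at 64.2 ± 7.76 CPM with resmetirom and 119 ± 6.14 CPM in controls (SD, n = 4 each), and its change was -0.89 (SE 0.10, adjusted p = 0.000356, edgeR). Among other carriers of the SLCO and SLC10 families, 0 of 8 tested were called by edgeR, and the smallest p was that of Slc10a6, at 1.11 (SE 0.48, adjusted p = 0.243). On that list 6 of the 14 carriers had too few counts to be tested, Slco1a5, Slco1a6, Slco1c1, Slco4a1, Slco4c1 and Slco5a1.

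Genes that place canalicular transporters in the membrane or keep that membrane stable were called in 0 of 17 tested by edgeR. The smallest p among them was that of Atp8b1, a phospholipid flippase gene whose loss causes cholestasis, at -0.4 (SE 0.12, adjusted p = 0.0815, edgeR), and DESeq2 called it (adjusted p = 0.0475). Of 14 tested genes of bile acid sensing 1 was called, the FXR partner gene Rxra at 0.34 (SE 0.083, adjusted p = 0.0384, edgeR). That call was lost without any 1 of the 8 libraries, and Rxra was at 0.027 with library sizes only and -0.14 as log2(TPM + 1). The FXR gene Nr1h4 itself was at 0.068 (SE 0.13, adjusted p = 0.854) and its target gene Nr0b2, which encodes the repressor SHP, at -0.78 (SE 0.61, adjusted p = 0.603, edgeR).

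All 10 members carry the bile secretion term of the table's own pathway annotation. Of 64 other tested genes with that term 10 were called higher and 6 lower by edgeR, and the median change of the 64 was 0.027 on the log2 scale. The authors' deposited table called 2 members higher (Slc10a1 and Slc51b) and 4 lower (Slco1a1, Slco1b2, Abcc3 and Abcc4) at an adjusted p under 0.05, where it called 1.19% of genes with counts higher and 32.4% lower. In the authors' deposited table the log2 fold changes, ratios of mean TPM, were -4.27 for Slco1a1 (adjusted p = 0.000156), -3.24 for Abcc3, -1.45 for Abcc4, -0.45 for Slco1b2, 0.44 for Slc10a1 (adjusted p = 0.0192) and 1.6 for Slc51b (adjusted p = 0.0431). Its 32.4% called lower is of 16019 genes with counts, while the log2(TPM + 1) scale called 38% of the 12207 tested genes lower. These are shares of different gene sets. The tool that made the deposited calls is not stated.

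Over the 8 libraries, the tested genes whose log2 CPM profile lay nearest to that of Abcc3, by the root mean square difference after subtracting each gene's control mean, were Ubd (0.236), Cyp2u1 (0.362) and Cyp2d9 (0.363). Ubd was near the floor, at 0.242 CPM with resmetirom and 2.18 CPM in controls, so its profile rests on few counts. Nearest to Slc10a1 were Sult1a1 (0.113), Dhrs7l (0.127) and Fads2 (0.145). Nearest to Abcb4 were Atp5pf (0.051), Slirp (0.0553) and Ndufa6 (0.0675). The distances are in log2 units, are smaller where the change is small, and describe likeness of profile in these libraries only.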

How the data were processed

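Poly(A)-selected mouse liver RNA was measured in 4 resmetirom and 4 control libraries, grouped by title. The authors deposited 1 table of raw counts, which are whole numbers, TPM values, and their own log2 fold change, p-value and adjusted p-value, per the file headers. The submitters' processing notes name HISAT2 2.1.0, RSEM, fastp 0.18.0, edgeR, StringTie 1.3.1, Bowtie2 2.2.8, DESeq2 and the build mm10, with no role or order. Aligner, counter and strand handling are not given in the sources used here. Of the per-sample columns, 0 were left unmatched. The labels do not say that libraries came from separate animals, so the spread behind each p-value may be technical. No pair of libraries in a group was a duplicate, with at least 13.8 chi-square units per degree of freedom.

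The main test of the counts was that of edgeR 4.0.16 under R 4.3.3 (filterByExpr, TMM, robust glmQLFit and glmQLFTest, Benjamini-Hochberg adjustment over 12207 genes, threshold 0.05). TMM factors lay between 0.804 and 0.879 for resmetirom replicates 2 to 4, at 1.06 for resmetirom replicate 1 and between 1.08 and 1.16 for controls. A positive log2 fold change means higher with resmetirom. An edgeR SE was taken as the size of the change over the square root of its F statistic. Alternatives used DESeq2 1.42.0, limma 3.58.1 and other scalings, filters and libraries. The fit was tested on simulated counts with known changes in 50 genes at each of 4 sizes. It recovered 26% of 1.5-fold, 58% of 2-fold, 90% of 4-fold and 94% of 8-fold changes, with 8 false calls among 142. Small changes are therefore often missed, and a member not called may still have changed. The changed genes were drawn from those averaging at least 1 CPM over the 8 libraries. Slc51b averaged less, so these rates do not cover it.

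The members and lists were chosen with earlier results of these data known. Named were all members and, of each pathway list, up to 4 called genes with the smallest p or else the gene with the smallest p, and for 1 called member of each role the 3 genes of nearest profile. Slc51a, Nr1h4, Nr0b2, Abcb1a, Rasl12, Alb, Fabp2, Spp1, Mup7, Mup20, Cyp7b1 and Cyp2b9 were named after their values were seen. One listed symbol was not found in the table. The macrophage, stellate, endothelial and lymphocyte marker lists had 0 genes called higher and 0, 1, 0 and 0 called lower of 10, 10, 10 and 6 tested. Positions and transcripts came from GENCODE M21 on GRCm38, the assembly of mm10.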

Additional observations from a re-analysis of the deposited data

Results flagged for a closer look

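In 38 groups of 4 libraries checked, 3 values stood apart from the others of their group, where chance gives about 1 in 20 groups. Slc10a1 in control replicate 2 was at 405 CPM, and the next control library was at 282 CPM. Slco1a1 in control replicate 3 was at 41.8 CPM, and the next control library was at 94.7 CPM. Slco1b2 in resmetirom replicate 1 was at 917 CPM, and the next resmetirom library was at 1272 CPM. Without these libraries the changes were 1.08 (adjusted p = 0.000923) for Slc10a1, -3.88 (adjusted p = 0.128) for Slco1a1 and 0.18 (adjusted p = 0.316) for Slco1b2, by edgeR.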

How the results depend on the processing

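Over all genes 317 were called higher and 243 lower, against 532 and 411 with DESeq2, 151 and 1961 with library sizes only, 127 and 4635 as log2(TPM + 1) and 128 and 4593 as log2(TPM + 0.1), and leaving out 1 library gave 182 to 313 higher and 149 to 238 lower. Of the members 3 were called higher and 2 lower, against 1 higher with library sizes only, 1 higher and 4 lower on both TPM scales, and 1 to 3 higher and 1 to 3 lower without 1 library. With the replicate block 240 genes were called higher and 166 lower, and 3 members higher and 1 lower, with the calls of Abcc4 (adjusted p = 0.0779) and Rxra (adjusted p = 0.12) lost. The deviations of same-numbered libraries from their group means had correlations of -0.325 to 0.184, and 1 of 4 resmetirom libraries correlated best with its own number. With so few libraries these values cannot decide whether the numbers pair the libraries, and the labels do not say so. Turned in direction were Slco1b2 at -0.26 with library sizes only, -0.45 on both TPM scales, Abcb11 at -0.16, Abcb4 at -0.11 and Rxra at -0.14 on both TPM scales, and Abcc2 at -0.17 with library sizes only, -0.36 on both TPM scales and -0.02 without control replicate 1 (up to 0.21 without control replicate 4). The cause was not tested. Depth limits Slc51b and Slc51a, with 102 and 34 counts in all.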
